A study of Mus musculus with 11 samples.

Results

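Lyve1, Prox1, Pdpn, Mmrn1, Reln, Foxc2, Sox18 and Ccbe1 are genes used to recognise lymphatic endothelium or required to build it. These 8 genes, of 25006 counted, were taken by symbol from a named list, and all 8 passed the filter on low counts. Bulk mRNA-seq was performed on left ventricle from 11 mice, 1 library per mouse. Naive control mice (M45 and M44) and control mice after MI (M38, M006 and M40) carried the genotype Vegfc fl/fl in the sample labels, whereas the extraction protocol and the study's methods describe the controls as LysMCre mice. Vegfc-deficient mice, naive (M34, M150 and M149) or after MI (M35, M913 and M900), were Vegfc fl/fl ; LysMCre. The floxed Vegfc alleles were therefore shared by all groups if the genotype label is right, and Cre was shared if the protocol is right. The legend of the paper's RNA-seq figure gives the comparison mice differently, as an inbred strain with neither change listed or as Vegfc fl/fl. If some controls were of that strain, the groups may have shared neither the floxed alleles nor Cre. MI was induced by permanent ligation of the left anterior descending coronary artery, and infarcted tissue was collected 9 days later. The paper's results text gives 1 week instead. Naive hearts gave ventricle of like mass and position. LysMCre drives Cre from the Lyz2 locus in macrophages, monocytes and neutrophils, so that Vegfc remains intact in other cells of the heart. Ages of these mice were not given in the sources used here.

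Lymphatic vessels drain fluid, lipid and immune cells from the heart wall. Their endothelium is specified when SOX18 switches on PROX1, the homeodomain factor that sets and maintains lymphatic identity, and it grows in response to VEGFC and VEGFD acting on the receptor VEGFR3, encoded by Flt4. CCBE1 assists the protease ADAMTS3 in releasing active VEGFC, FOXC2 shapes the valves of collecting vessels, and LYVE1, podoplanin (Pdpn), multimerin 1 (Mmrn1) and reelin (Reln) are products of the mature lymphatic endothelium. Several of these genes are not exclusive to it. Resident cardiac macrophages also make LYVE1, cardiomyocytes make PROX1, activated fibroblasts and mesothelium make podoplanin, platelets store multimerin 1, and blood endothelium makes SOX18.

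Total counts ran from 10824989 to 26782728 per library, and the lowest count of any of the 8 genes in any library was 13, for Foxc2 in naive Vegfc-deficient M150. The libraries differed in features other than MI and genotype. The long non-coding RNA Xist lay between 188 and 403 CPM (counts scaled to library size) in the 6 MI libraries and between 0.62 and 11.8 CPM in the 5 naive libraries, while 4 Y-linked genes summed to at most 1.84 CPM and at least 152 CPM in the same libraries. Sex-linked expression and MI therefore cannot be told apart. Lyz2, at which Cre is inserted, reached 4565 CPM in M149 despite its Vegfc-deficient label, more than the 2282 and 2121 CPM of the naive controls, and stood at 245 and 72.5 CPM in M34 and M150. After MI it was at 1392 CPM in Vegfc-deficient M35 but at 12.4 and 203 CPM in M913 and M900, all below the 4538 to 5380 CPM of the MI controls. Counts and log2 fold changes without M149 are given beside the comparisons it enters. The 10 cardiomyocyte markers summed to 85036 to 108953 CPM in naive libraries and to 3274 to 27707 CPM after MI, and the 9 fibroblast markers summed to 4461 to 6197 CPM and to 28865 to 45938 CPM. In bulk tissue such as this, fewer cells of a type and less RNA per cell cannot be told apart.

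Positions are given on GRCm38. Prox1 (ENSMUSG00000010175) occupies chromosome 1 from 190118035 to 190170714, Sox18 (ENSMUSG00000046470) chromosome 2 from 181669836 to 181671640, and Pdpn (ENSMUSG00000028583) chromosome 4 from 143267431 to 143299564. Reln (ENSMUSG00000042453) occupies chromosome 5 from 21884454 to 22344702, Mmrn1 (ENSMUSG00000054641) chromosome 6 from 60924976 to 60989378, and Lyve1 (ENSMUSG00000030787) chromosome 7 from 110850607 to 110863239. Foxc2 (ENSMUSG00000046714) lies on chromosome 8 from 121116171 to 121118895, where the annotation places Gm20388 on the same strand. The antisense gene Prox1os, which overlaps Prox1, had at most 27 counts in any library of these strand-specific preparations.

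The sequence before the transcription start is shown for Pdpn and Mmrn1, which rose after MI, and for Prox1, which fell. Each is the 250 bases upstream of a RefSeq start on GRCm38.p6, 5′ to 3′ on the gene's strand. RefSeq windows were matched for 4 of the 8 genes. The Mmrn1 start is one that lies inside the annotated span of the gene, downstream of the span's own 5′ end, and Prox1 has a second window, at chr1:190169516-190169765, that is not printed. Capitals mark the letters AACAAT (a SOX motif) or GTAAACA (a forkhead motif), searched on both strands.
Pdpn, chr4:143299565-143299814, minus strand: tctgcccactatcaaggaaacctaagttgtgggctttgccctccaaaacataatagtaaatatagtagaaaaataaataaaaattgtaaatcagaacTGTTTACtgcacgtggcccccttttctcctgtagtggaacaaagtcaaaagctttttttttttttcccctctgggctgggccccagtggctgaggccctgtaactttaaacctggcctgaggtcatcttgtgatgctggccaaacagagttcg
Mmrn1, chr6:60944067-60944316, plus strand: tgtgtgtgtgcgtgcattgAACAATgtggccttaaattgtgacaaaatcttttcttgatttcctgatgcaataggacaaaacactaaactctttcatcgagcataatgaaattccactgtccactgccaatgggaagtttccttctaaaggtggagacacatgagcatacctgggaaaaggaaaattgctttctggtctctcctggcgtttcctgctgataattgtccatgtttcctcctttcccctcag
Prox1, chr1:190170828-190171077, minus strand: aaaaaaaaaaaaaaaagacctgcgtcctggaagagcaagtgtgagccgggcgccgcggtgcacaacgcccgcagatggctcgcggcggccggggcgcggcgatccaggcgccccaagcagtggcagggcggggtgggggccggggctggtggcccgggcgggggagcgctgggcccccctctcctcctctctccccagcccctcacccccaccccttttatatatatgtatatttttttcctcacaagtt
The forkhead letters stood once upstream of Pdpn, and 3.16% of 32817 windows of this length held them. The SOX letters stood once upstream of Mmrn1 and were held by 9.42% of windows. Neither Prox1 window held these letters or CCGGAA, an ETS motif found in 12% of windows. These matches describe letters in the windows only.

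In naive ventricle the 8 genes spanned more than 2 orders of magnitude in level per length (RPKM, CPM per kilobase of exon). Sox18 stood first, at 60.7 ± 13.4 RPKM (SD, n = 2) in control hearts, followed by Lyve1 at 26.2 ± 9.83 and Pdpn at 17.6 ± 1.06 RPKM. Prox1 at 4.80 ± 0.71 RPKM and Mmrn1 at 3.27 ± 0.69 RPKM formed a middle tier. Foxc2, Ccbe1 and Reln lay below 1 RPKM, and of all neighbours in this order only Foxc2 and Ccbe1 overlapped between libraries. Naive Vegfc-deficient hearts had the same order with the same single overlap, also without M149.

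The order changed after MI. Pdpn headed it at 41.1 ± 15.2 RPKM (SD, n = 3) in control and 47.1 ± 14.3 RPKM (SD, n = 3) in Vegfc-deficient hearts, with libraries that overlapped those of Sox18. Prox1 moved below Mmrn1 and Foxc2, at 1.69 ± 1.06 RPKM (SD, n = 3) in control hearts. From Lyve1 down to Ccbe1 each gene overlapped its neighbour in both MI groups. Reln remained lowest, at 0.51 ± 0.32 RPKM (SD, n = 3) in control hearts, and overlapped Ccbe1 there but not in Vegfc-deficient hearts.

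**Figure D1:**
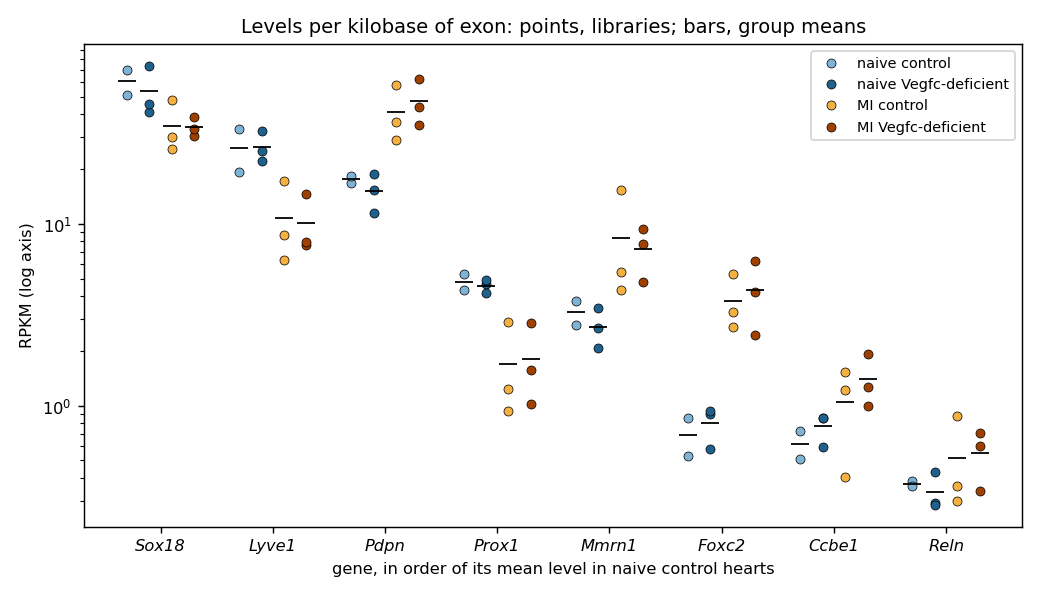
Level per kilobase of exon (RPKM, log axis) of the 8 genes, in order of their mean in naive control hearts; points are libraries coloured by group and black bars are group means. Sox18 heads the order in naive hearts and Pdpn in MI hearts, and Reln is lowest in all 4 groups.

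The first comparison set control hearts after MI against naive control hearts. These groups also differed in sex-linked expression, which cannot be told apart from MI in any result below. Pdpn, Mmrn1 and Foxc2 rose, whereas Lyve1, Prox1 and Sox18 fell, so that 6 of the 8 passed an adjusted p under 0.05. Among all 14779 genes tested, 50.4% passed, 26.3% higher and 24.1% lower, so the 6 of 8 stood against a background in which about as many genes moved as did not. The groups did not overlap for the same 6 of 8 genes, compared with 72.1% of all genes. The median log2 fold change was 0.61 over the 8 genes and 0.13 over all genes tested.

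Lyve1, the hyaluronan receptor of lymphatic capillaries, was at 56.2 and 96.8 CPM in naive control hearts and at 25.5, 49.8 and 18.5 CPM after MI. Every MI library was below both naive libraries, with M006 closest to them. This 2.45-fold decrease corresponded to a log2 fold change of -1.29 (SE 0.42, edgeR adjusted p = 0.0256). Markers of resident LYVE1-positive macrophages moved with Lyve1: 5 of 6 fell, and their sum dropped from 781 and 813 CPM in naive control libraries to between 273 and 344 CPM after MI. General macrophage markers went the other way: 6 of 9 rose and 0 fell, with a median log2 fold change of 1.34. The part of either list in the Lyve1 result was not tested.

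Prox1 was at 44.5 and 36.1 CPM in naive control hearts. After MI it was at 10.3, 24.3 and 7.81 CPM, again with M006 highest and the groups apart. Its log2 fold change of -1.52 (SE 0.47, edgeR adjusted p = 0.0215) was the most negative of the 8. All 10 cardiomyocyte markers fell in the same comparison, and their part in the Prox1 result was not tested.

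Sox18, the SOX factor that acts upstream of Prox1 and is also made by blood endothelium, was at 83.0 and 113.8 CPM in naive control hearts and at 48.4, 78.1 and 41.9 CPM after MI. The groups were separated only narrowly, since M006 came close to the lower naive library. The log2 fold change was -0.81 (SE 0.30, edgeR adjusted p = 0.0451). Of 14 blood and pan-endothelial markers, 3 fell and 1 rose, and their summed level was 1919 and 1992 CPM in naive control libraries and 1010 to 1831 CPM after MI. When libraries were scaled to that endothelial list instead of to all genes, the log2 fold change of Sox18 was -0.42 (adjusted p = 0.195, edgeR) and the call was lost. This scaling moved the median of all genes from 0.13 to 0.61.

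Foxc2, the valve-forming forkhead factor, was scarce in naive control hearts, at 1.45 and 2.32 CPM. It was at 7.40, 8.88 and 14.3 CPM after MI, so every infarcted heart exceeded both naive hearts several-fold. This increase was 5.40-fold, a log2 fold change of 2.43 (SE 0.48, edgeR adjusted p = 0.00243). Pdpn, the podoplanin gene, was at 30.5 and 33.3 CPM in naive control hearts and at 52.7, 65.5 and 105.7 CPM after MI, with no overlap. Pdpn had a log2 fold change of 1.23 (SE 0.34, edgeR adjusted p = 0.0123). Of 9 fibroblast markers 7 rose, and of 7 epicardial and mesothelial markers 5 rose, from a sum of 26.9 and 38.8 CPM to between 63.1 and 207.6 CPM. Whether these cells contributed to the Pdpn and Foxc2 results was not tested.

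Mmrn1, the multimerin gene, was at 22.02 and 16.3 CPM in naive control hearts and at 25.3, 90.5 and 32.0 CPM after MI. All 3 MI libraries lay above the naive ones, but M006 stood far above the others. The log2 fold change was 1.36 (SE 0.52, edgeR adjusted p = 0.0498). Without M006 it was 0.58 (edgeR adjusted p = 0.156), and the call was also lost in 8 of the 10 other fits that left out 1 library, including ones from groups outside this comparison. Platelet markers, of which Pf4 had the highest level, summed to 128 and 141 CPM in naive control libraries and to 47.2 to 63.5 CPM after MI. Of 7 listed, 4 were tested, and of these 2 rose and 1 fell, with a median log2 fold change of 0.45. Their part in the Mmrn1 result was not tested.

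Reln and Ccbe1 did not pass the test. Reln, the reelin gene of collecting vessels, was at 9.15 and 8.56 CPM in naive control hearts and at 7.07, 20.9 and 8.62 CPM after MI, with M38 just below and M006 far above the naive range. The difference in Reln was 0.45 on the log2 scale (95% interval -0.58 to 1.48) and became -0.18 without M006. Ccbe1, the VEGFC-processing cofactor, was at 7.88 and 5.53 CPM and at 13.2, 16.6 and 4.37 CPM, with M40 below both naive libraries. Its log2 fold change was 0.76 (95% interval -0.35 to 1.86, edgeR adjusted p = 0.225), and it passed without M40, at 1.15 (edgeR adjusted p = 0.0222). The summed level of the 8 genes, 255 and 313 CPM in naive control hearts, was between 190 and 355 CPM after MI.

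With 2 naive control libraries, calls in this comparison were fragile. Without M44 only Foxc2 passed, in a fit that called 32.1% of all genes, and without M45 only Foxc2 and Lyve1, with 30.1% of all genes. Without M38 the genes called were Pdpn, Mmrn1 and Foxc2 (47.8% of all genes), and without M40 the calls of Lyve1, Prox1 and Sox18 were lost (42.7% of all genes). Sox18 was also lost without M35 of the MI Vegfc-deficient group. The decreases of Lyve1 and Prox1 were larger without M006 (log2 fold changes of -1.80 and -2.15).

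**Figure D2:**
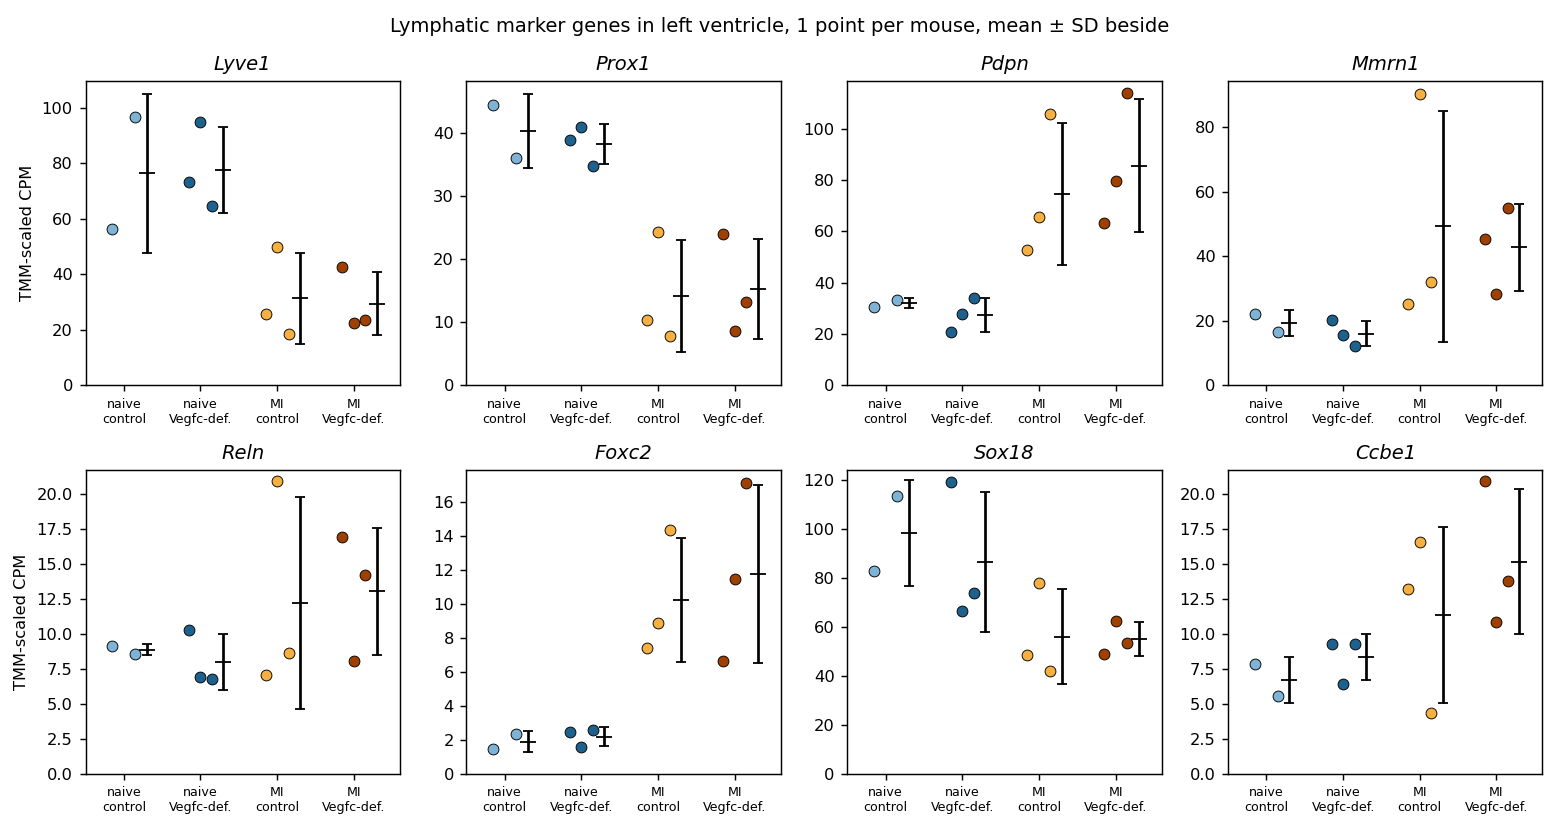
TMM-scaled CPM of each gene (linear axis from 0) in the 4 groups, 1 point per mouse, with the group mean and SD beside the points. Lyve1 and Prox1 are lower and Pdpn, Mmrn1 and Foxc2 higher in the MI groups than in the naive groups, while control and Vegfc-deficient points overlap in both states for all 8 genes.

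The same comparison in Vegfc-deficient hearts used other mice, again with sex-linked expression that differed between the MI and naive groups. Pdpn, Mmrn1 and Foxc2 rose and Lyve1 and Prox1 fell, 5 of the 8 genes. Among all genes tested 57.6% passed, 30.0% higher and 27.7% lower. The groups did not overlap for 7 of the 8, compared with 64.3% of all genes. The median log2 fold change was 0.78 over the 8 genes and 0.097 over all genes.

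Lyve1 was at 73.2, 94.9 and 64.7 CPM in the naive libraries M34, M150 and M149 and at 42.5, 22.4 and 23.3 CPM in the MI libraries M35, M913 and M900. M35 was the highest MI library, though still below every naive one. Lyve1 thus fell with a log2 fold change of -1.40 (SE 0.39, edgeR adjusted p = 0.0107). Prox1 was at 38.9, 41.03 and 34.8 CPM in the naive libraries and at 24.0, 8.53 and 13.1 CPM after MI, with M35 again highest and no overlap. Its log2 fold change was -1.33 (SE 0.43, edgeR adjusted p = 0.023).

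Pdpn was at 20.8, 27.7 and 33.9 CPM in naive Vegfc-deficient hearts and at 63.1, 79.8 and 114.0 CPM after MI. Pdpn increased 3.12-fold, a log2 fold change of 1.64 (SE 0.30, edgeR adjusted p = 0.00107). Foxc2 was at 2.44, 1.57 and 2.55 CPM in the naive and at 6.64, 11.5 and 17.1 CPM in the MI libraries, in none of which it fell within the naive range. The log2 fold change was 2.41 (SE 0.41, edgeR adjusted p = 0.000722). As in control hearts, Foxc2 changed more than any other of the 8 genes.

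Mmrn1 was at 20.1, 15.6 and 12.2 CPM in naive Vegfc-deficient hearts and at 45.2, 28.2 and 54.8 CPM after MI. Here no single MI library stood far from the rest. Across them the log2 fold change was 1.42 (SE 0.46, edgeR adjusted p = 0.0216). Without M149 it was 1.25 (edgeR adjusted p = 0.0673).

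Sox18 was at 119.5, 66.7 and 73.8 CPM in the naive and at 49.0, 62.5 and 53.7 CPM in the MI libraries. All MI values were below all naive values, but the log2 fold change of -0.66 (95% interval -1.27 to -0.05) did not pass the adjusted test (edgeR adjusted p = 0.0625). It was -0.35 without M34, and it passed with DESeq2 (adjusted p = 0.0337) and in edgeR with DESeq2 size factors (adjusted p = 0.0443). Ccbe1 (ENSMUSG00000046318, chromosome 18 from 66045302 to 66302741) was at 9.28, 6.41 and 9.31 CPM and at 20.9, 10.9 and 13.8 CPM, also without overlap. Its log2 fold change of 0.86 (95% interval -0.11 to 1.82) did not pass (edgeR adjusted p = 0.114). Reln, at 10.3, 6.90 and 6.77 CPM before and 16.9, 8.03 and 14.2 CPM after MI, overlapped between groups, with a log2 fold change of 0.70 (95% interval -0.22 to 1.62).

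Pdpn, Foxc2 and Lyve1 passed in this comparison whichever library was left out. Prox1 was lost without M34, M150, M913 or M900, and Mmrn1 without M150, M149 or M900. Sox18 passed without M006 or M150, and Ccbe1 without M40. Without M149, 56.6% of all genes and 4 of the 8 were called. The log2 fold changes were then 1.82 for Pdpn, 2.52 for Foxc2, -1.52 for Lyve1 and -1.40 for Prox1, which passed, and -0.76 for Sox18, 0.94 for Ccbe1 and 0.59 for Reln, which did not.

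**Figure D3:**
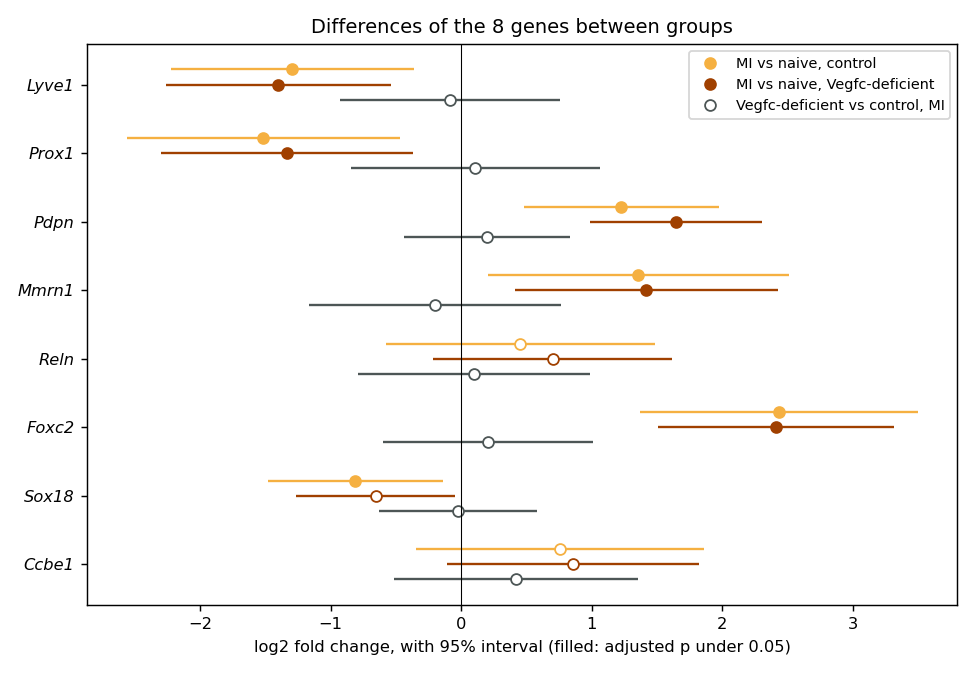
log2 fold changes of the 8 genes (x axis) with 95% intervals from the edgeR fit for MI against naive in control and in Vegfc-deficient hearts and for Vegfc-deficient against control hearts after MI; filled points have an adjusted p under 0.05. Foxc2 lies furthest to the right in both MI comparisons, and every genotype interval spans 0.

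The comparison of Vegfc-deficient with control hearts after MI asked whether myeloid Vegfc affects the lymphatic genes of the infarcted ventricle. None of the 8 genes passed the edgeR test, and none of all genes did (0%); 1173 of 14779 genes had an unadjusted p under 0.05, and none of the 8 was among them. DESeq2 called 58 genes, none of the 8. The groups overlapped for all 8 genes, whereas 12.1% of genes tested did not overlap. The comparisons of genotype share their libraries with those of MI and are not independent of them.

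The intervals bound the sizes that these data allow. For Sox18, the log2 fold change was -0.03 (95% interval -0.63 to 0.58), the narrowest of the 8. Pdpn was at 0.20 (-0.44 to 0.83) and Foxc2 at 0.20 (-0.60 to 1.01). For Lyve1 the value was -0.09 (-0.93 to 0.76) and for Prox1 0.11 (-0.85 to 1.06). Mmrn1 was at -0.20 (-1.17 to 0.76), Reln at 0.10 (-0.79 to 0.99) and Ccbe1, with the value furthest from 0, at 0.42 (-0.52 to 1.35). The Ccbe1 value was 0.026 without M40 and 0.78 without M006. Without M35, which had the most Lyz2 of its group, the values of Lyve1 and Prox1 were -0.45 and -0.38. Leaving out MI control M006 moved these values the other way, to 0.42 and 0.74. None of the 8 genes passed in either fit.

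Naive hearts gave the same count. Vegfc-deficient and control libraries overlapped for each of the 8 genes, against 22.4% of all genes that did not overlap, and edgeR called 0 of 8 and 0% of all genes (499 genes had an unadjusted p under 0.05, none of the 8, and DESeq2 called 14, none of the 8). Log2 fold changes ran from -0.26 for Mmrn1 (95% interval -1.39 to 0.87) to 0.32 for Ccbe1 (95% interval -0.79 to 1.43). The Mmrn1 value was -0.031 without M45, and that of Ccbe1 0.081 without M44. Without M149, the library whose Lyz2 level went against its label, edgeR called 17 of 14791 genes between naive genotypes (0.115%, 4 higher and 13 lower), none of them among the 8, whose log2 fold changes then ran from -0.40 for Pdpn to 0.24 for Ccbe1. After MI it called 0 genes in the same fit. The test of whether the response to MI differed between genotypes also called 0 of the 8 genes and 0% of all genes (1226 had an unadjusted p under 0.05 and DESeq2 called 53, none of the 8 in either). The interaction furthest from 0 was that of Pdpn, at 0.42 (95% interval -0.55 to 1.38, edgeR adjusted p = 0.824). It was 0.19 without M900, 0.75 without M40, 0.60 without M149 and 0.0096 when libraries were scaled to the endothelial list.

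Among the 6 MI libraries the 8 genes were not all highest in the same mice. Lyve1 and Prox1 were highest in M006 and M35 and lowest in M40, followed by M913. Pdpn and Foxc2 had the reverse tendency, with their highest levels in M900 and M40. Mmrn1 and Reln were highest in M006, and lowest in M38.

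Over these 6 libraries Pearson's r of log2 CPM was 0.957 between Lyve1 and Prox1, 0.953 between Pdpn and Foxc2 and 0.943 between Mmrn1 and Reln. Each of these pairs had an exact permutation p of 0.00972, 0.00972 and 0.00694 and a p of 0.0907 after adjustment over all 28 pairs, so none passed. Spearman's rho was 0.943 in each (exact permutation p = 0.0167, adjusted 0.117). Without the 2 libraries farthest from the median of the first gene, r was 0.667 for Lyve1 and Prox1, 0.803 for Pdpn and Foxc2 and 0.894 for Mmrn1 and Reln. Lyve1 and Foxc2 had an r of -0.669 (exact permutation p = 0.169, adjusted 0.401).

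The summed RNA of cell type markers also varied among these libraries. M40, with the lowest Lyve1, Prox1, Sox18 and Ccbe1, had the lowest cardiomyocyte marker sum at 3274 CPM and the lowest endothelial sum at 1010 CPM. M35 had the highest cardiomyocyte sum at 27707 CPM and the highest resident macrophage sum at 401 CPM. M38 had a cardiomyocyte sum of 18334 CPM with Prox1 at 10.3 CPM, whereas M006 had 13076 CPM with the highest Prox1, at 24.3 CPM. M006 had the highest endothelial sum at 1831 CPM, and M900, with the highest Pdpn and Foxc2, had the highest fibroblast sum at 45938 CPM. The part of these differences in the levels of the 8 genes was not tested.

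**Figure D4:**
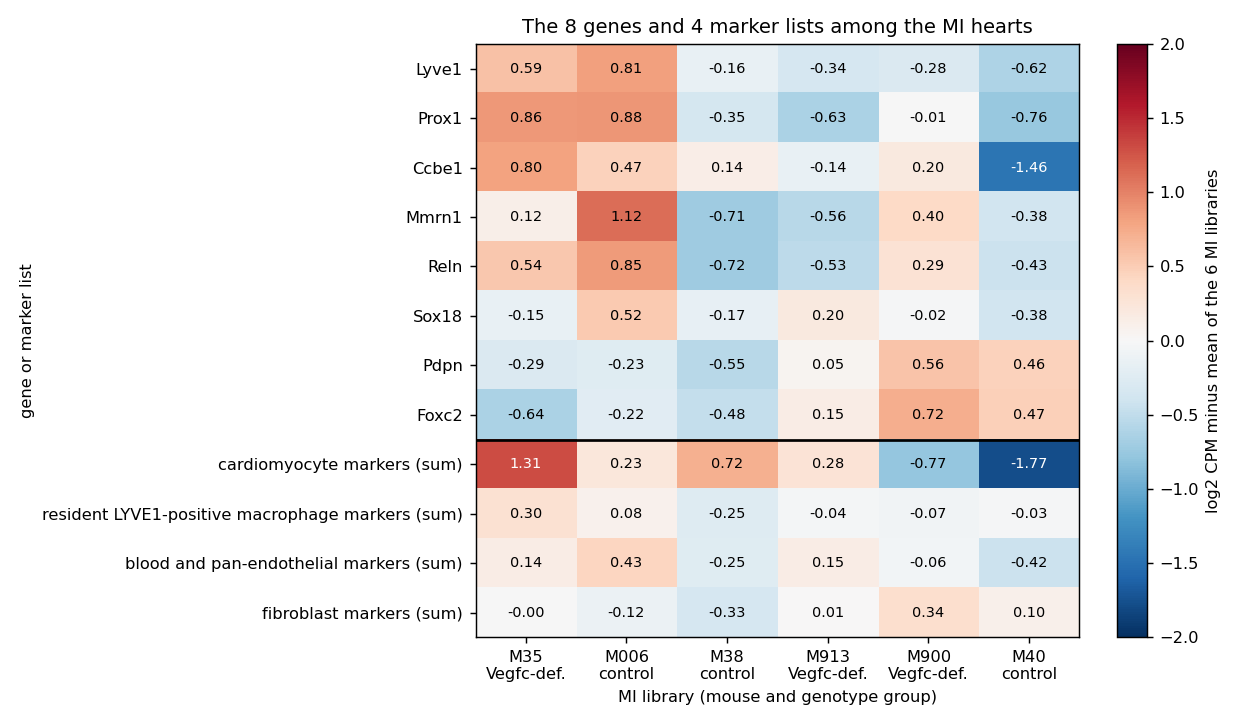
Heat map of log2 CPM minus the mean of the 6 MI libraries (colour and printed value) for the 8 genes, above the line, and for the summed CPM of 4 marker lists, below it; columns are MI mice with their genotype group. Lyve1 and Prox1 are highest in M35 and M006, Pdpn and Foxc2 in M900 and M40, and each pair of mice holds 1 of each genotype.

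Genes whose deviations from their group means over all 11 libraries were most like those of Lyve1 were Srsf3 (r = 0.966), Gm16124 (r = 0.963) and Kctd6 (r = 0.963). For Prox1 they were Scn3b (r = 0.991), 1700047M11Rik (r = 0.980) and Flvcr2 (r = 0.976), and for Mmrn1 Ccnt1 (r = 0.978), B230354K17Rik (r = 0.975) and Ppp1r9a (r = 0.966). For Reln they were Adgrg3 (r = 0.966), Hivep2 (r = 0.963) and Prickle2 (r = 0.960). Each set holds the 3 highest of 13576 genes searched, and no p is given because they were chosen as the highest. Spearman's rho lay between 0.873 and 0.982, and r without the 2 farthest libraries, M006 among them in each case, between 0.909 and 0.969. None of these genes belongs to the 8 or to the other lymphatic lists.

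The growth factor axis upstream of the 8 genes was represented by 16 genes, all tested. In control hearts 5 rose and 3 fell after MI, and in Vegfc-deficient hearts 7 rose and 2 fell, with medians of 0.22 and 0.62 on the log2 scale. The same fits called 50.4% and 57.6% of all genes, with medians of 0.13 and 0.097. In control hearts the count of 8 genes was 4 without M44. Of the ligands, Vegfd rose from 5.16 and 3.92 CPM to 26.3, 61.9 and 46.5 CPM in control hearts. In Vegfc-deficient hearts it rose from 5.78, 4.36 and 3.04 CPM to 35.3, 38.8 and 40.8 CPM. Every MI library was far above every naive one, with log2 fold changes of 3.30 (SE 0.38, edgeR adjusted p = 0.000245) and 3.11 (SE 0.33, edgeR adjusted p = 6.49e-05). Vegfc itself, whose whole-gene count does not separate deleted from intact alleles here, had log2 fold changes of 0.05 (95% interval -0.58 to 0.69) and -0.26 (95% interval -0.83 to 0.31). Between Vegfc-deficient and control hearts, the Vegfc difference was 0.045 in naive hearts (95% interval -0.59 to 0.68). After MI it was -0.27 (95% interval -0.83 to 0.29).

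The receptors went different ways. Flt4, the VEGFC and VEGFD receptor of lymphatic endothelium, was at 12.3 and 15.97 CPM in naive and at 16.03, 43.98 and 21.02 CPM in MI control hearts. Its log2 fold change there was 0.93 (SE 0.42, edgeR adjusted p = 0.0908). In Vegfc-deficient hearts Flt4 rose from 15.4, 11.1 and 12.6 CPM to 40.4, 20.0 and 34.2 CPM (log2 fold change 1.27, SE 0.37, edgeR adjusted p = 0.0148). Kdr, which encodes VEGFR2 of blood and lymphatic endothelium, fell in both genotypes, by 1.67 and 1.19 on the log2 scale (edgeR adjusted p = 0.00516 and 0.0148). The coreceptor gene Nrp2 rose by 0.67 and 1.02 (edgeR adjusted p = 0.0225 and 0.00109).

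Of the genes for VEGFC processing and matrix, Svep1, a matrix protein needed for lymphatic remodelling, rose by 1.29 and 2.12 on the log2 scale (edgeR adjusted p = 0.00206 and 6.18e-05), and Itga9, the integrin subunit of lymphatic valves, by 0.82 and 0.91 (edgeR adjusted p = 0.00754 and 0.00167). Adamts3, the VEGFC protease that works with CCBE1, had a log2 fold change of -0.49 in control hearts (edgeR adjusted p = 0.405) and rose by 1.17 in Vegfc-deficient hearts (edgeR adjusted p = 0.0402), where its naive level rested on 1.48 ± 0.78 CPM (SD, n = 3) and the call was lost without M45, M34, M149, M35 or M900. Angpt2, a TIE2 ligand, rose by 1.79 and 1.28 (edgeR adjusted p = 0.00409 and 0.00781). Adm, the adrenomedullin gene, fell by 0.75 and 0.74 (edgeR adjusted p = 0.03 and 0.0183).

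Of 22 other lymphatic endothelial genes 21 were tested, and Ccl21a had no count in any library. In control hearts 8 rose and 3 fell, and in Vegfc-deficient hearts 11 rose and 2 fell, with medians of 0.57 and 0.63, beside the same 50.4% and 57.6% of all genes called and medians of 0.13 and 0.097. Bulk counts do not show which cells made the transcripts of either list. Cardiomyocyte marker sums were lower and fibroblast marker sums higher after MI. The part of lymphatic endothelium or of other cells in these changes was not tested. Clca3a1, which encodes a chloride channel regulator found on lymphatic endothelium, moved most: it was at 1.18 and 0.54 CPM in naive and at 8.45, 20.6 and 32.4 CPM in MI control hearts. In Vegfc-deficient hearts it was at 1.71, 1.21 and 0.78 CPM and, after MI, at 6.52, 19.3 and 21.5 CPM, without overlap in either genotype. Its log2 fold changes were 4.57 (SE 0.79, edgeR adjusted p = 0.00126) and 3.65 (SE 0.63, edgeR adjusted p = 0.000826).

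Emilin1, an elastic-fibre glycoprotein gene active in lymphatic anchoring and also in mesenchyme, rose by 2.21 and 2.34 on the log2 scale (edgeR adjusted p = 0.000741 and 0.000143). Fat4, an atypical cadherin gene of lymphatic valve formation, rose by 1.26 and 1.58 (edgeR adjusted p = 0.0032 and 0.000316). The transcription factor genes Nfatc1 and Maf rose in both genotypes as well, Nfatc1 by 0.74 and 1.04 and Maf by 0.92 and 0.75. Gata2, an endothelial factor needed for lymphatic valves, fell by 1.34 and 1.11 (edgeR adjusted p = 0.00419 and 0.00534), and the flow-responsive Klf2 fell by 0.81 and 0.72 (edgeR adjusted p = 0.0129 and 0.012). Across both lists, Vegfd, Svep1, Angpt2, Clca3a1, Emilin1, Fat4, Nfatc1, Maf and Gata2 passed in both genotypes under all 20 alternative settings. In control hearts the call of Nrp2 was lost without M45, M44 or M006, that of Itga9 and Klf2 without M44, and that of Adm without M45, M44, M38 or M40. In Vegfc-deficient hearts Flt4 was lost without M150, Kdr without M913 or M900, and Adm without M34 or M900. Scaled to the endothelial list, the calls of Klf2 and Adm were lost in both genotypes (-0.40 and -0.34 in control hearts). Without M149 the calls of Adamts3, Nr2f2 and Gja4 were lost in Vegfc-deficient hearts (log2 fold changes of 0.79, 0.51 and 0.42), and that of Ramp2 in control hearts. No gene of either list passed in a genotype comparison or in the interaction by edgeR.

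**Figure D5:**
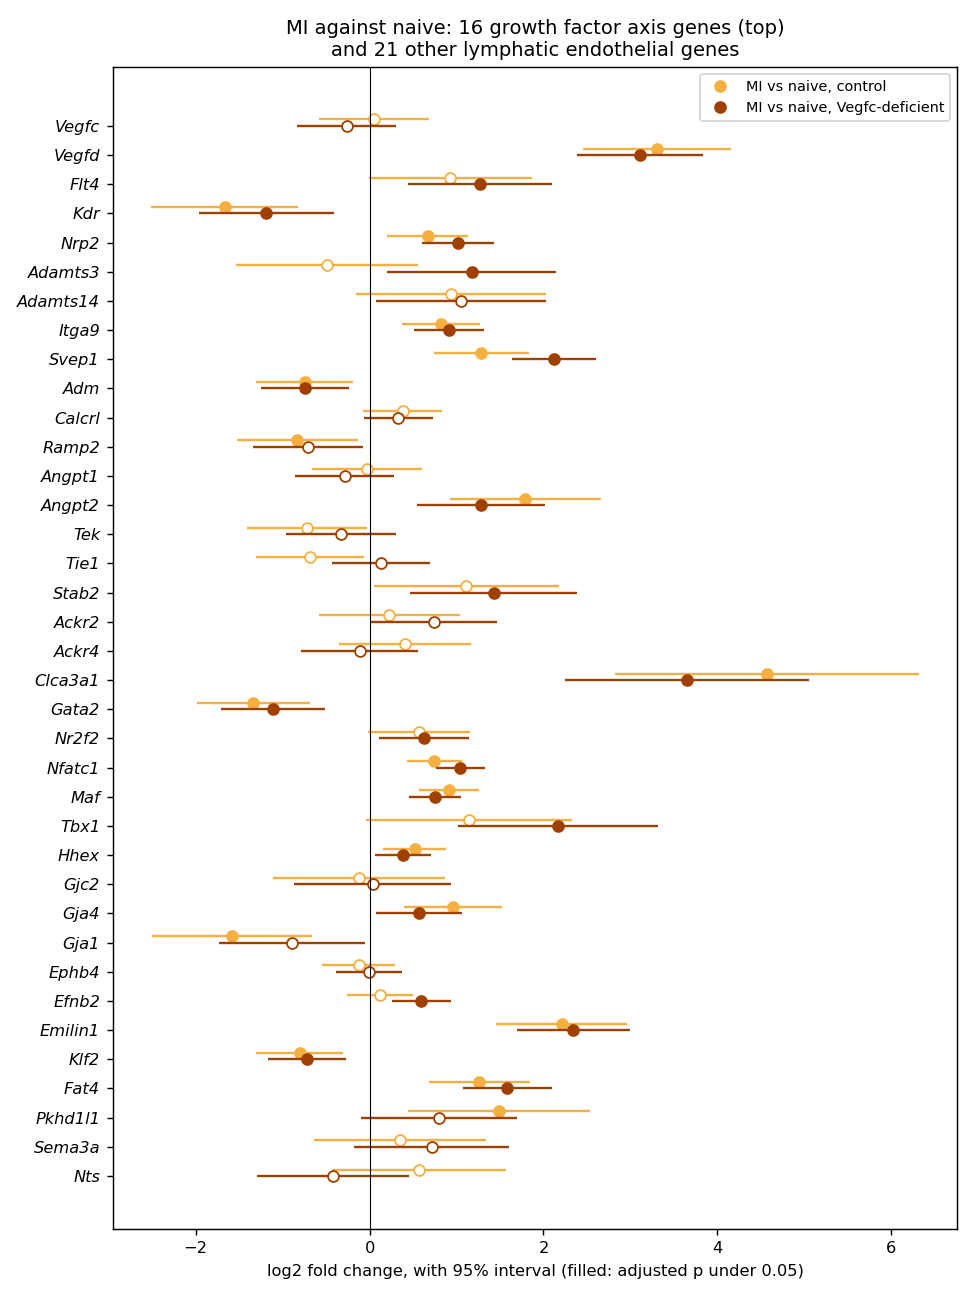
log2 fold changes after MI (x axis) with 95% intervals for 16 growth factor axis genes, Vegfc to Tie1, and 21 other lymphatic endothelial genes, Stab2 to Nts, in control and in Vegfc-deficient hearts; filled points have an adjusted p under 0.05. Clca3a1 and Vegfd lie furthest to the right, and Kdr, Gata2, Klf2 and Adm lie to the left of 0 with filled points in both genotypes.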

How the data were processed

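Stranded mRNA libraries of left ventricle from 11 mice were analysed. The authors deposited whole-number read counts on 25006 Ensembl genes per library, without normalisation. The submitters' processing notes name cutadapt (version 1.13), STAR, HTSeq (version 0.6.1p1), DESeq2 (version 1.14.1) and the build mm10. Symbols, coordinates and exon lengths for RPKM came from GENCODE M21 (24942 genes matched). Genes of the mitochondrial genome had no counts.

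Counts were scaled by TMM, filtered by filterByExpr (14779 genes tested) and fitted in 1 model of all libraries with edgeR (version 4.0.16, R version 4.3.3). Quasi-likelihood tests were adjusted by Benjamini-Hochberg over all genes tested, at a threshold of 0.05. Libraries of a group are separate mice, and replicates differed by more than sampling noise. The code was tested on simulated data. Mouse identifiers are not shared between groups, so no pairing was used.

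The 8 genes and all lists were chosen with earlier results of these data known. Named genes were the 8, the growth factor axis and other lymphatic lists, Vegfc and Lyz2, and, for likeness, the 3 genes of mean CPM at least 1 with the highest r of residual log2 CPM (prior count 2) for Lyve1, Prox1, Mmrn1 and Reln. Marker lists of other cell types are given as counts and sums. Alternatives covered scaling, test (DESeq2 version 1.42.0, limma-voom version 3.58.1), filter, samples fitted, threshold and each library left out.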

Additional observations from a re-analysis of the deposited data

How the results depend on the processing

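No call of the 8 genes in either MI comparison changed direction under any setting. In control hearts 6 were called, 3 when the compared groups were fitted alone (47.2% of all genes), 1 at a threshold of 0.01 (32.5%), and 1 (without M44, 32.1%) to 5 when single libraries were left out (2 without M45, 3 without M38). In Vegfc-deficient hearts 5 were called, 2 at a threshold of 0.01 (41.3%), and 3 (without M900, 46.9%) to 6 with single libraries left out. Scaled to the endothelial list, Reln and Ccbe1 gained calls in these hearts (edgeR adjusted p = 0.043 and 0.0461), and no call was lost. That fit called 42.6% of all genes, and their median log2 fold change was 0.23. With the compared groups fitted alone, Ccbe1 also passed in Vegfc-deficient hearts (edgeR adjusted p = 0.0379, 56.9% of all genes). Among the 8 genes' own values, 676 kept direction and side of the threshold, 45 lost and 9 gained a call, and 59 changed sign, all 59 for differences that were not called in either fit. The genotype and interaction counts stayed at 0 under every setting run; the cause of lost calls was not tested. Calls of the pathway genes, a set of results added after seeing the data, kept their sign throughout.

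Sign changes under limma-voom after MI between genotypes were Prox1 -0.20, Reln -0.062 and Sox18 0.038, and in the interaction Prox1 -0.14, Mmrn1 -0.14, Reln -0.0068 and Foxc2 0.065. Scaled to the endothelial list, naive genotype differences became 0.10 for Prox1 and 0.00051 for Pdpn, and interactions -0.029 for Mmrn1, -0.061 for Sox18 and -0.11 for Ccbe1. With single libraries left out, the MI change of Reln in control hearts ran from -0.18 to 0.66. Genotype differences after MI ran from -0.45 to 0.42 (Lyve1), -0.38 to 0.74 (Prox1), -0.033 to 0.54 (Pdpn), -0.49 to 0.58 (Mmrn1), -0.14 to 0.73 (Reln), -0.14 to 0.53 (Foxc2), -0.20 to 0.28 (Sox18) and 0.026 to 0.78 (Ccbe1), with M006 left out at the upper end of all but Pdpn and Foxc2. Naive genotype differences ran from -0.32 to 0.46 (Lyve1), -0.22 to 0.081 (Prox1), -0.072 to 0.60 (Foxc2), -0.49 to 0.060 (Sox18), -0.47 to -0.031 (Mmrn1) and 0.081 to 0.59 (Ccbe1). Interactions ran from -0.55 to 0.44 (Lyve1), -0.30 to 0.85 (Prox1), -0.22 to 0.87 (Mmrn1), -0.40 to 0.31 (Foxc2), -0.085 to 0.50 (Sox18), -0.29 to 0.49 (Ccbe1) and 0.19 to 0.75 (Pdpn). No paired analysis was possible because mouse identifiers are not shared between groups.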
